A study of Mus musculus with 6 samples.

Results

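Satellite glia wrap the cell bodies of sympathetic neurons and Schwann cells wrap their axons, and both arise from the neural crest. Schwann cells that myelinate an axon switch on myelin genes, while satellite glia and non-myelinating Schwann cells keep genes of the immature state. Both kinds of cell depend on the transcription factor Sox10, and Schwann cells depend on neuregulin signals from axons. The 7 genes described here are markers of these cells: Sox10, Erbb3, S100b, Fabp7, Gfap, Mbp and Art3. They were taken as all array features whose platform gene symbol was one of these 7 names. This gave 33 of 45220 features, and 7 of the 19087 genes measured.

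Two-colour Agilent arrays compared RNA of cultured mouse sympathetic neurons, in the Cy5 channel, with a reference in the Cy3 channel, RNA of postnatal day 5 sympathetic cervical ganglia without treatment. The Control group had 3 arrays of neurons at 24 h without interferon-gamma. The +IFN group had 3 arrays of neurons given interferon-gamma, a cytokine of T cells and natural killer cells, at 500 U/ml for 24 h. The labels give neither the strain, nor the age of the cultures, nor how many glia they held. The title of the study names protection of sympathetic neurons by interferon-gamma, at the release of cytochrome c. Every value is a log2 ratio of culture over ganglion: 0 means equal shares of RNA, and 1 means 2 times as much in the culture. A ganglion holds its glia, so a ratio below 0 for a glial gene means a smaller share of the culture's RNA than of the ganglion's. In such bulk RNA, fewer glial cells and less of a transcript per glial cell cannot be told apart. The ratios have no dye swap and no measured signal beside them, so a level against 0 is described without a test. The labels do not say that the 3 arrays of a group came from separate cultures, so p-values measure the spread between these arrays, which may be technical.

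All 6 measured genes that served as a check of the treatment rose on the +IFN arrays, among them Tap1, the peptide transporter of antigen presentation, by 3.82 on the log2 scale. The sign of the ratios was itself settled partly by such genes. Correlations over all genes were 0.611 to 0.709 within the Control arrays, 0.612 to 0.783 within the +IFN arrays and 0.72 between Control array 2 and +IFN array 2. Of 19087 genes, 213 (1.12%) were called higher and 4 (0.021%) lower with +IFN, by limma with Benjamini-Hochberg adjustment over all genes at 0.05. Against these shares, 0 of the 7 glial genes were called in either direction. At an unadjusted p under 0.05, Art3 was higher and S100b lower, and over all genes 1006 were higher and 512 lower.

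In the Control cultures, glial transcripts were mostly a smaller share of the RNA than in the ganglion. Of the 7 genes, 6 had a mean ratio below 0, and 5 lay below 0 on all 3 Control arrays, as did 32.6% of all genes. The median of their Control means was -0.94, against -0.03 for all genes. From low to high the order was Fabp7, Mbp, Gfap, Art3, Sox10, Erbb3 and S100b. Neighbours in this order overlapped over the 3 arrays, except Sox10 and Erbb3, whose ranges lay just apart. The 7 genes therefore spread over a wide range, from Fabp7 at -1.81 ± 0.29 (SD, n = 3), below which lay 0.98% of genes, to S100b at 0.73 ± 0.83 (SD, n = 3), below which lay 96.1%. The median, the 5 genes below 0 on every Control array and the order all depend on how features are combined. In Mbp and Gfap, most features are of a single sequence record and outweigh the rest. With each record given equal weight, both means lay nearer the ganglion level.

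**Figure D1:**
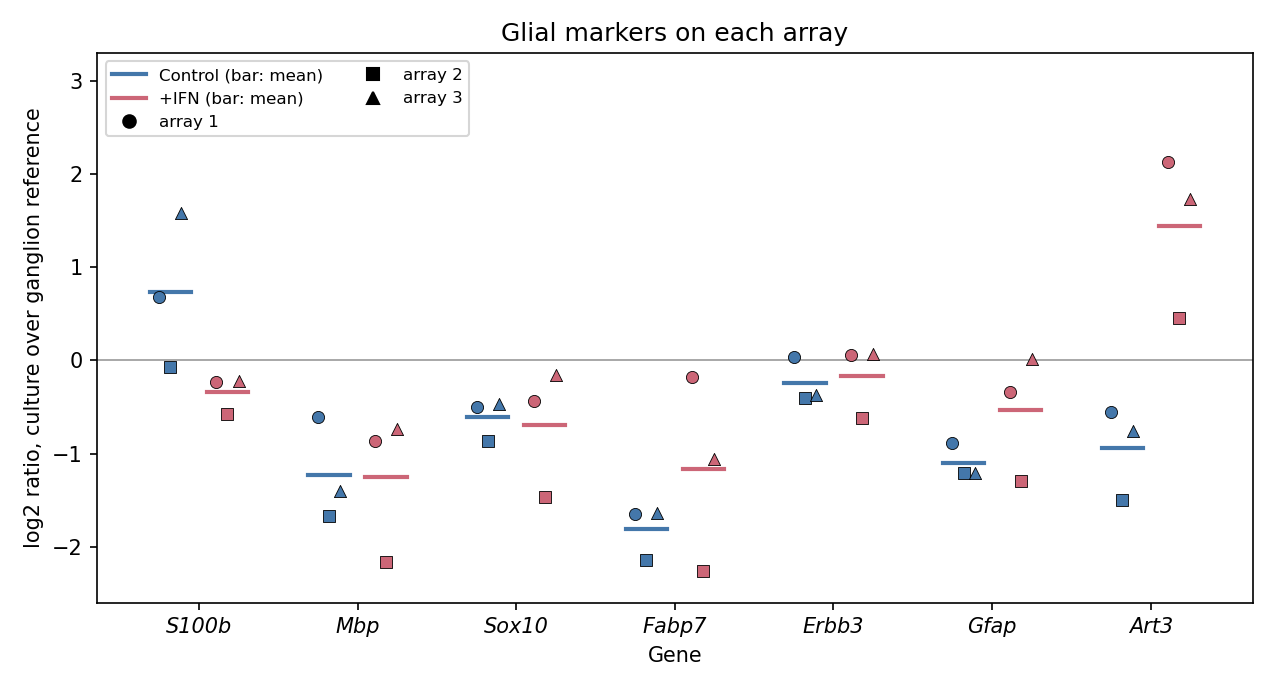
Log2 ratio of culture over ganglion reference (y axis) of the 7 glial genes (x axis) on each of the 6 arrays; points are arrays, their shape gives the replicate number, and bars are means of 3 arrays. Only S100b and Art3 have groups that do not overlap, and array 2 (squares) is the lowest of its group in both groups for 6 of 7 genes.

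Sox10 is the neural crest transcription factor that Schwann cells and satellite glia need throughout life. It lies at chr15:79154913-79164490 (GRCm38.p6). Its ratios on Control arrays 1, 2 and 3 were -0.50, -0.86 and -0.47, and on +IFN arrays 1, 2 and 3 they were -0.44, -1.47 and -0.16. All 6 were below 0, with +IFN array 2 the lowest, and the groups overlapped. The Control mean of -0.61 ± 0.22 (SD, n = 3) corresponds to 0.655 times the share in the ganglion. The difference with +IFN was -0.08 ± 0.34 (SE, 95% interval -0.91 to 0.75, limma adjusted p = 0.969), an interval that still holds a change of almost 1 log2 unit downward. Without +IFN array 2 the difference was 0.31, so 1 array decides its sign. The 2 Sox10 features differed by up to 0.82 on an array.

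Erbb3 encodes the neuregulin receptor through which axons support Schwann cell precursors, and it signals as a partner of Erbb2. It lies at chr10:128567523-128589635 (GRCm38.p6). Its ratios were 0.04, -0.40 and -0.37 on the Control arrays and 0.06, -0.62 and 0.07 on the +IFN arrays. Of the 7 genes it lay closest to the ganglion level, with a Control mean of -0.25 ± 0.24 (SD, n = 3), or 0.843 times the ganglion. The groups overlapped, with a difference of 0.08 ± 0.24 (SE, 95% interval -0.48 to 0.65, limma adjusted p = 0.947). Its 4 features spanned up to 0.93 on an array, more than the range over the 3 arrays of either group. The difference was -0.03 without +IFN array 1 and also -0.03 without +IFN array 3, so its sign rests on single arrays.

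S100b, a calcium-binding protein of Schwann cells and satellite glia, was the exception to the low Control levels. It lies at chr10:76253836-76261319 (GRCm38.p6) and had 1 feature. Its ratios on the Control arrays were 0.68, -0.07 and 1.58, a mean of 1.66 times the ganglion. This level rests on single arrays: the mean log2 ratio of 0.73 was 0.30 without Control array 3 and 1.13 without Control array 2. On the +IFN arrays they were -0.23, -0.58 and -0.22. The +IFN arrays all lay below the Control arrays, though +IFN array 3 and Control array 2 were close together, and Control array 3 stood highest by far. Of all genes, 5.58% had +IFN arrays all below the Control arrays. The difference was -1.07 ± 0.40 (SE, 95% interval -2.04 to -0.11), 0.475 times the Control level. It missed the threshold over all genes (limma adjusted p = 0.564, unadjusted p = 0.0339), and an exact two-sided permutation test of 3 arrays against 3 cannot go below 0.1. The difference was -0.65 without Control array 3 and -1.47 without Control array 2, and passed in neither case.

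Fabp7, the brain-type fatty acid binding protein, is expressed by satellite glia and by Schwann cell precursors. It lies at chr10:57784923-57788450 (GRCm38.p6) and had 1 feature. Its ratios were -1.65, -2.14 and -1.64 on the Control arrays and -0.18, -2.26 and -1.06 on the +IFN arrays. All Control arrays were low and close together, at a mean of 0.286 times the ganglion. The +IFN arrays spread around them: arrays 1 and 3 were above every Control array and array 2 below every one. Their SD was 1.05, against 0.29 in Control. The difference of 0.64 ± 0.50 (SE, 95% interval -0.57 to 1.85) did not pass (limma adjusted p = 0.8). It was 0.14 without +IFN array 1 and 1.19 without +IFN array 2, and passed in neither case.

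Gfap encodes the intermediate filament of astrocytes, which non-myelinating Schwann cells and activated satellite glia also make. It lies at chr11:102887336-102897200 (GRCm38.p6). Its ratios, as the mean of 12 features, were -0.89, -1.21 and -1.21 on the Control arrays and -0.34, -1.29 and 0.02 on the +IFN arrays. The Control arrays were close together, at 0.466 times the ganglion (mean -1.10 ± 0.18, SD, n = 3). On the +IFN side, arrays 1 and 3 lay above every Control array and array 2 just below. The difference was 0.56 ± 0.34 (SE, 95% interval -0.24 to 1.37, limma adjusted p = 0.727). It was 0.29 without +IFN array 3 and 0.94 without +IFN array 2, and passed in neither case.

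The 12 Gfap features were aimed at 3 sequence records and did not tell the same story. The 10 features of GenBank record K01347 ran together, within 0.64 of each other on any array. Their mean was -1.38 ± 0.15 (SD, n = 3) in Control and higher by 0.50 with +IFN. The 1 feature of RefSeq record NM_010277 was at -0.47 ± 0.11 (SD, n = 3) in Control and differed by 0.05. The 1 feature of the cDNA record AK140151 lay above 0 on every array, at 1.82, 0.76 and 0.64 in Control and 3.98, 0.84 and 3.59 with +IFN. It thus lay on the other side of the ganglion level from the other 11 features, and was far higher on +IFN arrays 1 and 3 than on array 2. Its difference of 1.73 ± 0.89 (SE) did not pass (limma adjusted p = 0.763). The Control level of Gfap therefore depends on how features are combined: it was -1.35 as the median over features and -0.26 with each record given equal weight.

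Mbp encodes myelin basic protein, which holds the membranes of compact myelin together. Its ratios, as the mean of 12 features, were -0.61, -1.67 and -1.40 on the Control arrays and -0.87, -2.16 and -0.74 on the +IFN arrays. All 6 lay below 0 and the groups overlapped. The Control mean was -1.23 ± 0.55 (SD, n = 3), 0.428 times the ganglion. The difference was -0.03 ± 0.45 (SE, 95% interval -1.11 to 1.04, limma adjusted p = 0.991). Single arrays decide its sign, which was positive without Control array 1 (0.27) and without +IFN array 2 (0.42).

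Mbp features also fell into sets. Of the 11 features of RefSeq record NM_010777, 10 ran together with a Control mean of -1.48 ± 0.64 (SD, n = 3), and the other was at -0.78 ± 0.26 (SD, n = 3). The 1 feature of record NM_001025245 was flat across all arrays, at 0.86, 0.93 and 0.79 in Control and 0.82, 0.75 and 0.77 with +IFN. That record was thus 1.81 times the ganglion level in Control cultures, while the other 11 features were below the ganglion. With each record given equal weight, the Control level of Mbp was -0.28. Of all 33 glial features, 27 lay below 0 on every Control array. Most of these were the 10 Mbp features and the 10 Gfap features that ran together, so the features are not separate observations. The share over all features is not given here, and over all genes it was 32.6%. By limma fitted to single features, 0 of the 33 were called with +IFN and 2 had an unadjusted p under 0.05, where 0.697% of all features were called.

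**Figure D2:**
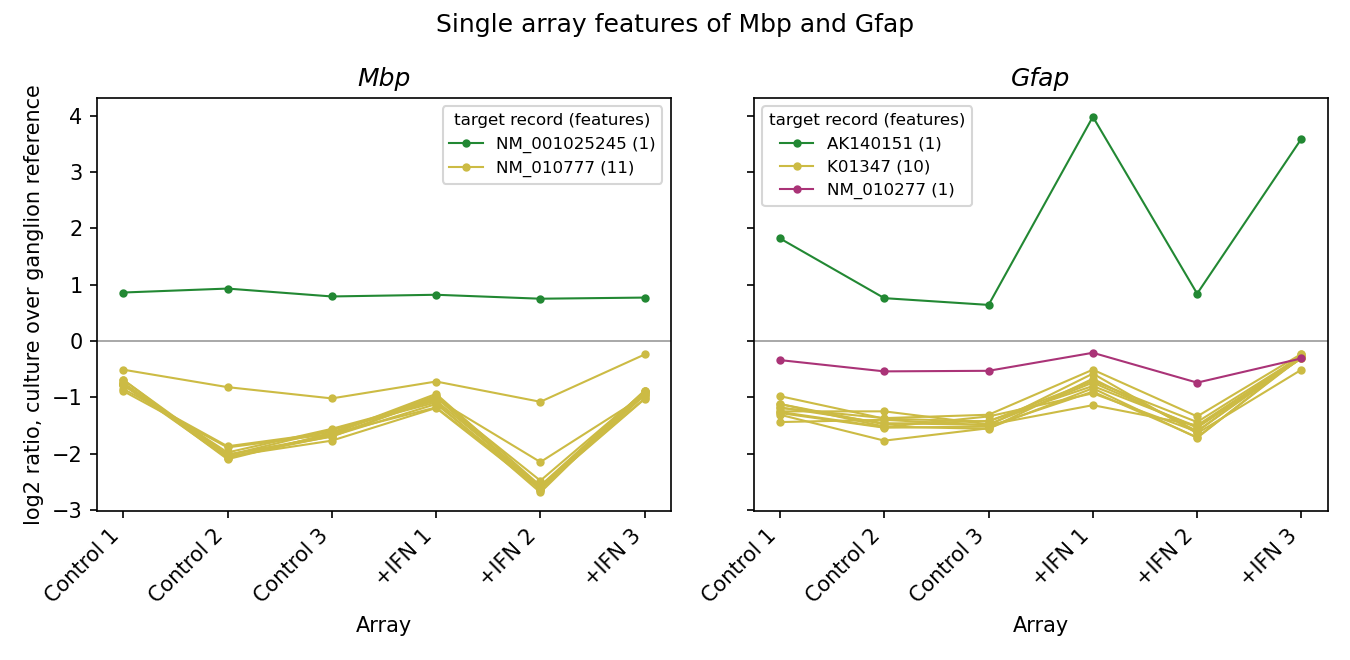
Log2 ratio of culture over ganglion reference (y axis) on each array (x axis) of the 12 single features of Mbp and the 12 of Gfap, coloured by the sequence record that the platform gives. For Mbp the feature of NM_001025245 stays between 0.75 and 0.93 while the others are below 0, and for Gfap the feature of AK140151 reaches 3.98 on +IFN array 1.

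The promoter of Gfap is shown because genes that respond to interferon-gamma often carry gamma-activated motifs. Gfap itself was not called with +IFN. It was picked for display as it held a match, where the other members whose windows were searched here held none. The RefSeq window of GRCm38.p6, from 250 bases before the start to 50 after it, was searched on both strands for TTCNNNGAA. This motif was found in 8.3% of 32851 such windows. Interferon-stimulated response elements were searched as GAAA, any 2 bases and GAAA again, also on both strands, and were found in 3.44%. Windows of 4 of the 7 members were searched here, and those of the other members were not. Those of S100b and Fabp7 held neither motif, which says only that these letters are not in those windows. The Gfap window at chr11:102897151-102897450, minus strand, held 1 gamma-activated motif, marked in capitals:
Gfap: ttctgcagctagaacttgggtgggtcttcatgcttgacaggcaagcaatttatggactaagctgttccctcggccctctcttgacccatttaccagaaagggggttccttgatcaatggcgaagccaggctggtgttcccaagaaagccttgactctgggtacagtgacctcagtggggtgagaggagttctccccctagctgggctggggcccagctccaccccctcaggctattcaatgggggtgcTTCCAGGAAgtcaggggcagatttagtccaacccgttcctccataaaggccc
The match is a description of the sequence, begins 2 bases before the start, and is palindromic in its fixed letters.

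Art3 had the highest +IFN ratios of the 7. It encodes a member of the ADP-ribosyltransferase family that is anchored to the cell surface. It had 1 feature, with ratios of -0.55, -1.50 and -0.76 on the Control arrays and 2.13, 0.46 and 1.73 on the +IFN arrays. Every +IFN array lay above every Control array, as for 8.08% of all genes, and array 2 was the lowest in each group. In Control the mean was -0.94 ± 0.50 (SD, n = 3), 0.521 times the ganglion, and with +IFN it was 1.44 ± 0.87 (SD, n = 3). The difference was 2.38 ± 0.47 (SE, 95% interval 1.26 to 3.50), or 5.21-fold. It had a limma p of 0.00178 and an adjusted p of 0.118 over all genes, so it was not called. By the same replicate numbers the differences were 2.69, 1.96 and 2.49, all above 1.9 and close to each other.

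Whether Art3 was called depended on the arrays and on the processing. Without +IFN array 2 the difference was 2.87 and passed (limma adjusted p = 0.00975). With all 6 arrays it also passed when genes of low SD were left out (limma adjusted p = 0.0314) and when limma weighted the arrays (2.69, adjusted p = 0.026). Over 18 alternative settings the difference was 2.03 to 2.87 with adjusted p of 0.00975 to 0.433, and 5 passed. None of the other 6 glial genes passed under any of these settings. The other ADP-ribosyltransferases measured did not share the difference: it was 0.06 for Art1, -0.16 for Art4 and 0.04 for Art5, with 0 of 3 called.

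The neighbours of Art3 on chromosome 5 include genes of the interferon response. Art3 spans chr5:92331799-92414628 (GRCm38.p6, plus strand). Cxcl10, a chemokine that draws T cells, lies inside this span on the minus strand at chr5:92346638-92348889, between the first and second annotated starts of Art3. Cxcl11, annotated as a transcribed pseudogene, lies in the same interval at chr5:92359544-92363296, and Cxcl9 lies outside it, at chr5:92321331-92328079. With +IFN, Cxcl9 rose by 5.06 ± 0.35 (SE, limma adjusted p = 0.00124) and Cxcl10 by 7.61 ± 0.85 (SE, limma adjusted p = 0.0105). Cxcl11 was at -5.23, -3.18 and -2.70 on the Control arrays and at 1.35, 0.01 and 2.57 on the +IFN arrays, a difference of 5.01 ± 0.85 (SE, limma adjusted p = 0.0652). On the other side of Art3, Nup54, a nuclear pore gene, differed by 0.33 (limma adjusted p = 0.583, unadjusted p = 0.0374). Its +IFN arrays all lay above its Control arrays. The differences of the 10 genes near Art3 ran from 0.07 to 7.61, with a median of 0.26. For 4 of them the +IFN arrays all lay above the Control arrays, as for 8.08% of all genes. Of the 10 genes near Art3, the 2 chemokine genes Cxcl9 and Cxcl10 were called higher and 0 lower. The count was 1 without Control array 1, Control array 2, +IFN array 1 or +IFN array 3, also 1 with cyclic loess or robust moderation. It was 3 without +IFN array 2, and also 3 with all arrays when genes of low SD were left out or limma weighted the arrays. The sources do not say which Art3 exon the feature matches, and the part of overlapping transcripts in its signal was not tested.

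**Figure D3:**
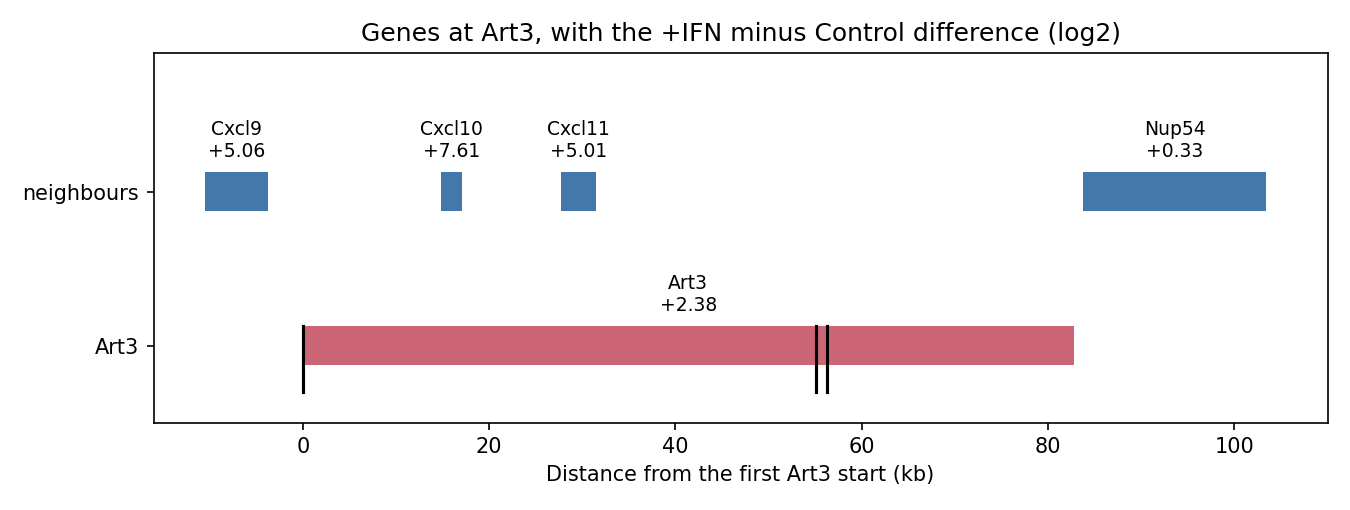
Positions of Art3 and its neighbours as distance from the first annotated Art3 start (x axis, kb), each with its +IFN minus Control difference in log2 units; black ticks mark the 3 annotated Art3 starts. Cxcl10 (7.61) and Cxcl11 (5.01) lie between the first and second starts of Art3 (2.38), and Nup54 (0.33) beyond its end.

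Art3 and Cxcl10 promoter windows are set side by side because these genes overlap and were both higher with +IFN. All 3 Art3 windows and the Cxcl9 window held neither motif searched, and the Cxcl10 window held 1 response element, marked in capitals. The windows of the first Art3 start (chr5:92331577-92331876, plus strand), the second Art3 start (chr5:92386637-92386936, plus strand) and Cxcl10 (chr5:92348840-92349139, minus strand) read:
Art3 first start: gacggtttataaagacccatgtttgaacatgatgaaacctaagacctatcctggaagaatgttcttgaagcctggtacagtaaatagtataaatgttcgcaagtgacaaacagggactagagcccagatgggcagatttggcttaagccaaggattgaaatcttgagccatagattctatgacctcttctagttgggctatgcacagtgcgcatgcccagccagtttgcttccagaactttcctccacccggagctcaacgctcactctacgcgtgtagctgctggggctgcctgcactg
Art3 second start: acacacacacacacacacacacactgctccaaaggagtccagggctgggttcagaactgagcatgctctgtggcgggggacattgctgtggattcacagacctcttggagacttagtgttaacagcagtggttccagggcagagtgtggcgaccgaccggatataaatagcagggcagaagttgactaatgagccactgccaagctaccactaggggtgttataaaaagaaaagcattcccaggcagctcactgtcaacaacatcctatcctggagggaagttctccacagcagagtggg
Cxcl10: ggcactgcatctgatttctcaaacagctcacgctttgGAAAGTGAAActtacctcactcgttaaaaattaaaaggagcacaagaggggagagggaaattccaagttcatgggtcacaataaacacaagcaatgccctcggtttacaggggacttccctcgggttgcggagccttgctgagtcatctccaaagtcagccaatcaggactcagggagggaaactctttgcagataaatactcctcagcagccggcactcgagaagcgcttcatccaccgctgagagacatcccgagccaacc
The Cxcl10 match begins 213 bases before the start. The absence of a match in Art3 says nothing of sites outside these windows.

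Replicate number 2 had the lowest glial ratios in both groups. Of the 7 genes, 6 were lowest on array 2 of Control and also on array 2 of +IFN, as were 18.2% of all genes. The exception was Gfap, where Control arrays 2 and 3 were equal to 2 decimals. Array 2 lay below the mean of the other arrays of its group by -1.20 to -0.16 in Control and by -1.64 to -0.36 in +IFN over the 7 genes. The medians of the 7 were -0.55, -1.21 and -0.76 on the Control arrays and -0.23, -1.29 and -0.16 on the +IFN arrays. Taken by replicate number, 12 of 21 differences were above 0. Number 1 gave 5 higher and 2 lower, number 2 gave 1 higher, Art3, and 6 lower, and number 3 gave 6 higher and 1 lower, S100b. Their medians were 0.06, -0.22 and 0.57, against 0.03, -0.02 and 0.03 over all genes. The labels do not say what a number pairs.

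Marker lists of other cells showed whether array 2 stood apart more widely. All 13 fibroblast markers were also lowest on array 2 of both groups, with medians of -0.04, -0.80 and -0.05 in Control and 0.23, -1.31 and -0.13 with +IFN. Endothelial markers did so in 7 of 12 genes and dividing-cell markers in 9 of 11. Sympathetic neuron markers did so in 0 of 15, and their median Control mean was 0.06. The part of these cells in the glial values was not tested.

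**Figure D4:**
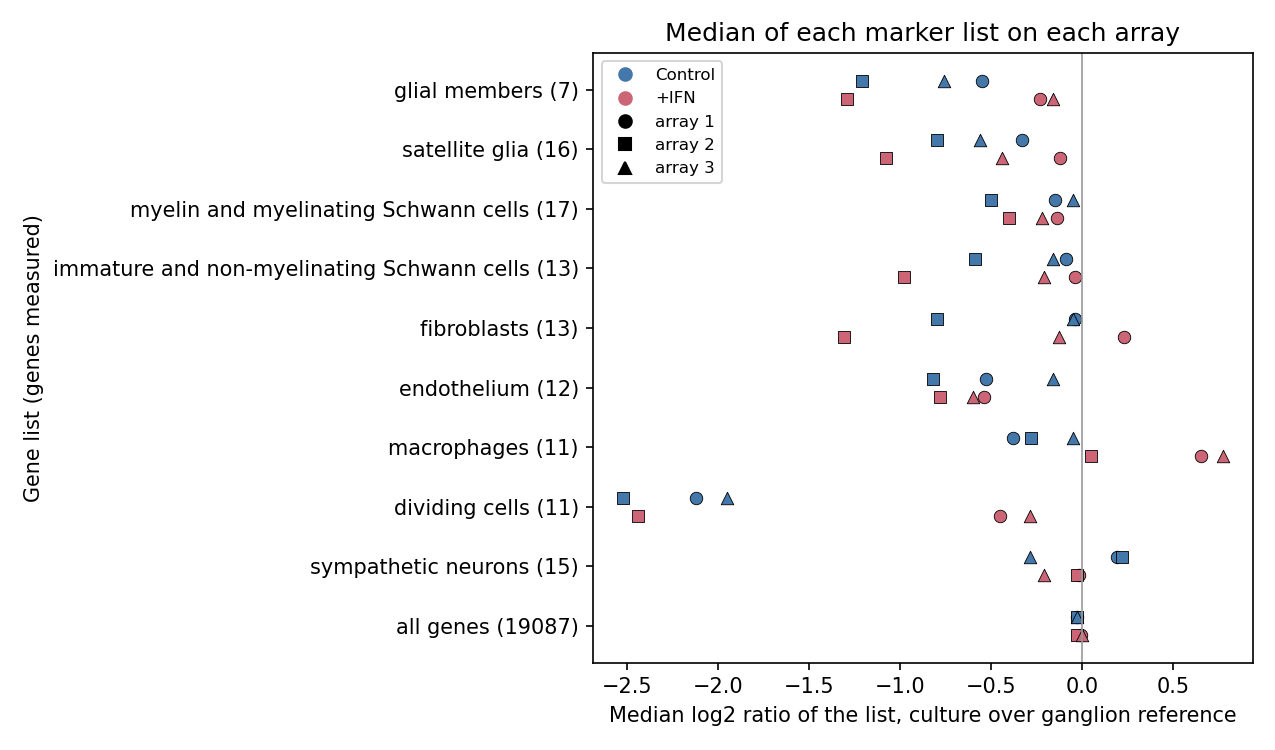
Median log2 ratio of culture over ganglion reference (x axis) of each marker list on each array (y axis: list, with the number of genes measured); colour gives the group and shape the replicate number. Array 2 is lowest in both groups for the glial, fibroblast and dividing-cell medians, and not for sympathetic neurons.

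Other genes listed for these glia gave a mixed picture, and 0 of 46 measured were called with +IFN by limma. At an unadjusted limma p under 0.05, 1 was higher and 8 lower, against 1006 and 512 of all 19087 genes. The median Control mean of the 46 was -0.32 and their median difference -0.04. On every Control array 25 of them were below 0 and 11 above 0, against 6220 and 5249 of all genes. Array 2 was lowest in both groups for 20 of the 46, and for 18.2% of all genes. By the mean over features, the 46 thus sat less far below the ganglion than the 7 members, a comparison given without a test. The median of the 7 depends on how the features of Mbp and Gfap are combined. For other ways of combining features, the comparison is not given here. Not all of the 46 are particular to glia: Gap43, for example, is also on the sympathetic neuron list used here. The part of neurons in these values was not tested.

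Among 16 satellite glia genes, the lowest Control means belonged to Kcnj10, the potassium channel of satellite glia, at -2.22 ± 0.54 (SD, n = 3), and Ednrb, an endothelin receptor, at -1.88 ± 0.38 (SD, n = 3). The highest belonged to Cdh19, a cadherin of glia, at 0.86, and Glul, glutamine synthetase, at 0.80. Kcnj10 resembled Fabp7 in its arrays: -1.92, -2.84 and -1.91 in Control and -0.16, -2.89 and -0.96 with +IFN. In both genes +IFN arrays 1 and 3 were above every Control array and array 2 below. This pattern was not particular to glial genes. The 132 genes of any kind with Control means below -2, the range of Kcnj10, had median shifts of 1.51, -0.22 and 1.40 on +IFN arrays 1, 2 and 3.

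Among 17 myelin genes, Mal, a myelin proteolipid, was lowest at -2.12 ± 0.67 (SD, n = 3), followed by Egr2, the transcription factor that drives myelination, at -1.49 ± 0.50 (SD, n = 3). Fa2h, which makes the hydroxylated fatty acids of myelin lipids, was highest at 0.69, and Pmp22, a protein of compact peripheral myelin, was at 0.44. All 3 +IFN arrays lay below the Control arrays for 5 of the 17 genes, against 5.58% of all genes, and above them for 1. Among the 5 were Egr2 (difference -0.74 ± 0.26, SE, limma adjusted p = 0.518) and Fa2h (-0.81 ± 0.20, SE, limma adjusted p = 0.253). Pmp22 (-0.20 ± 0.12, SE, limma adjusted p = 0.715) was another, but only barely, with Control array 2 and +IFN array 2 both at 0.35 as rounded. These differences were of the same sign as that of S100b and likewise did not pass.

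Among 13 genes of immature and non-myelinating Schwann cells, Dhh, the hedgehog ligand of Schwann cells, had a Control mean of -1.64 ± 0.92 (SD, n = 3) and Artn, a neurotrophic factor, -1.27 ± 0.65 (SD, n = 3). Cdh2, N-cadherin, was highest at 1.16, and Ngfr, the low-affinity neurotrophin receptor that neurons also express, was at 0.76. The median difference of this list was -0.31, and 0 of 13 were called.

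Genes of the members' own pathways and families showed 0 calls as well. Of 13 genes of neuregulin and ErbB signalling, the median difference was -0.03, and Erbb2, the signalling partner of Erbb3, had a Control mean of -0.84 and a difference of 0.15. The neuregulin ligand Nrg1 had a Control mean of 0.48 and a difference of -0.24. Of 13 partners of Sox10 and neural crest factors, Sox9 differed by -0.73 ± 0.42 (SE, limma adjusted p = 0.719), and 9 were lowest on array 2 of both groups.

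Other members of the S100, fatty acid binding protein and intermediate filament families had medians near the ganglion level. The 13 other S100 genes had a median Control mean of 0.09, and ran from S100a16 at -1.32 to S100a1 at 0.98. The 8 other fatty acid binding proteins had a median of 0.14, with Fabp5 at 0.28 and Fabp3, the heart-type protein, at 0.54. The 16 other intermediate filament genes had a median of 0.01, with the neurofilament genes Nefl at 1.04 and Nefh at 0.96, on the opposite side of the ganglion level from Gfap at -1.10. None of the genes of these 3 families was called.

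Genes with low Control ratios tended to be higher on +IFN arrays 1 and 3, so each glial difference was set beside genes of like Control level. The 608 genes with Control means from -2 to -1, a range that holds Mbp, Fabp7 and Gfap, had median shifts of 0.73, -0.17 and 0.57 on +IFN arrays 1, 2 and 3 and of 0.37 in the mean. The differences of Fabp7 (0.64) and Gfap (0.56) were near this median and that of Mbp (-0.03) below it. The 1802 genes from -1 to -0.5 had a median of 0.14, against 2.38 for Art3 and -0.08 for Sox10. The 1283 genes from 0.5 to 1 had a median of -0.18, against -1.07 for S100b. Art3 and S100b thus lay farthest from the genes of their own range, and the same Control arrays enter both quantities.

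**Figure D5:**
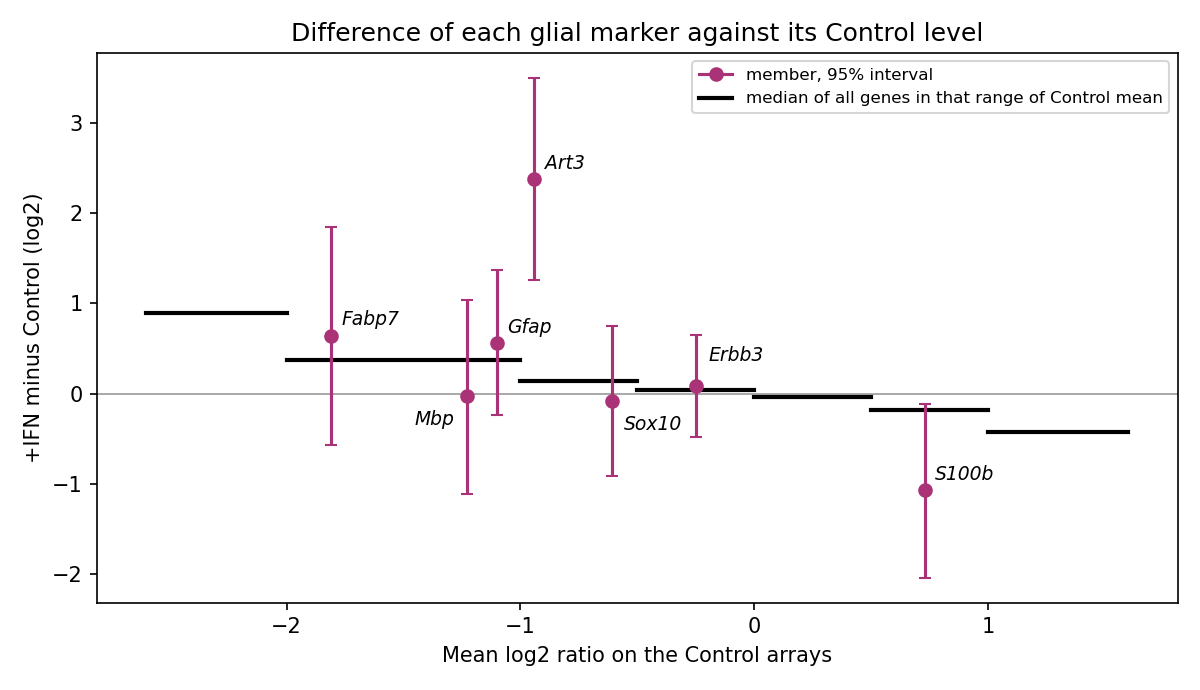
Difference between +IFN and Control in log2 units (y axis) against the mean Control log2 ratio (x axis) of the 7 glial genes, with 95% intervals from limma; black lines are medians of all genes in each range of Control mean, the outermost of which have no outer limit. Art3 at 2.38 is far above its line and S100b at -1.07 below its line.

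Dividing-cell markers moved on the same arrays as some glial genes, while macrophage medians were higher on all 3 +IFN arrays. The 11 dividing-cell markers had medians of -2.12, -2.52 and -1.95 in Control and of -0.45, -2.44 and -0.29 with +IFN, again high on arrays 1 and 3 and low on array 2, as for Fabp7 and Gfap. None of the 11 was called with all arrays, and 10 passed without +IFN array 2. Macrophage markers had medians of -0.38, -0.28 and -0.05 in Control and of 0.65, 0.05 and 0.77 with +IFN. Of 11 macrophage markers, 2 were called higher: C1qa by 1.64 ± 0.23 (SE, limma adjusted p = 0.0288) and C1qc by 1.53 ± 0.20 (SE, limma adjusted p = 0.0211), subunits of complement C1q. This count was 0 when any of the 3 Control arrays, +IFN array 1 or +IFN array 3 was left out, and 4 without +IFN array 2. It was 1 with quantile normalization, cyclic loess or robust moderation, and 3 with array weights. The part of dividing cells and macrophages in the glial values was not tested. Melanocyte markers, another neural crest lineage, had 0 of 6 called with all arrays and 1 without +IFN array 2.

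The genes whose 6 array values were most like each member's were ranked by the root mean square difference over the arrays, as a description. For Art3 they were Ccrl2, a chemokine-binding receptor, at 0.34, Slfn9 at 0.37 and the class I gene H2-Q5 at 0.45. For Gfap they were Timeless at 0.15, Arhgef39 at 0.16 and the DNA polymerase subunit Pold1 at 0.17, and for Fabp7 they were the histone chaperone Asf1b at 0.21, with Enpep and Mxd3 at 0.23. For S100b they were Mustn1 at 0.21, the heat shock protein gene Hspb1 at 0.22 and Cdkn2a at 0.23. For Mbp they were Vgll4 at 0.21, Dapk2 at 0.24 and Fbln7 at 0.25, and for Sox10 they were Enpp3 at 0.14, Smad3 at 0.16 and Lyl1 at 0.17. Erbb3, whose ratios were near 0 like those of many genes, was matched most closely, by Poglut3 at 0.07 and by Espn and Acbd4 at 0.09. The 7 members were left out of this ranking, so none could be nearest to another. Only the nearest 3 genes were kept for each member, which leaves little room for any short list. No other glial gene of these lists was among them, and this cannot show whether glial genes share a pattern. The mean of the 7 members was nearest to Incenp (0.10), Mif4gd (0.11), Sipa1, Sema3f, Creb3l4, BC030500 and Tnfaip8l1 (0.12 each), Fzd8 (0.13), Spidr (0.14) and Caskin2 (0.15).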

How the data were processed

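RNA on 3 Control and 3 +IFN arrays was hybridised against 1 kind of ganglion reference, with Trizol extraction and the Low Input Quick Amp kit on 500 ng, as the labels' protocols give it. Images were read with Agilent Feature Extraction, per the submitters' processing notes (version not given in the sources used here). The values deposited by the authors are log ratios, taken here as log2, 1 per feature and centred by the authors within each array (medians 0 to 0.005). The log2 scale was inferred from the range, -9.003 to 10.73, and the direction from the dyes and the usual red over green convention, under which known interferon targets are higher with +IFN. Signals were not analysed here, so no filter on dim features was possible, and the fold of a dim gene may be too small.

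Of 45220 features, 33653 had 1 gene in the platform annotation, 56 several and 11511 none; 33517 were matched to RefSeq (GRCm38.p6). Features of a gene were averaged, which gave 19087 genes. Groups were compared with limma 3.58.1 (lmFit and eBayes, two-sided, R 4.3.3). P-values were adjusted over all genes (Benjamini-Hochberg), and 0.05 was the threshold; errors of differences are standard errors of this fit. The members and gene lists were chosen with earlier results of these data known. Named were all members; from each list the called genes and the 2 highest and 2 lowest in Control mean; the genes most like each member; and genes near Art3. Not every such gene is printed, and Nup54 was named after its value was seen. Arrays of the same number correlated in their deviations from the group means at 0.064, 0.309 and -0.031, which does not show pairing. Alternatives were other normalizations, feature summaries, treatment of zeros, a filter on low SD, array weights, robust moderation, a replicate block and leaving out arrays.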

Additional observations from a re-analysis of the deposited data

How the results depend on the processing

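The number of genes called with +IFN, 217, was 75 with cyclic loess and 113 to 508 when each array was left out in turn, the highest without +IFN array 2. The count of called glial members went from 0 to 1, Art3, when genes of low SD were left out (adjusted p = 0.0314), with array weights (2.69, adjusted p = 0.026), with the replicate block (adjusted p = 0.0153), and, chosen after seeing the data, without both arrays numbered 2 (2.59, adjusted p = 0.0107); leaving out 1 array at a time gave 0 to 1. The replicate block changed no other member's call. The difference of Mbp turned to 0.30 with array weights and 0.20 without both arrays numbered 2, and was -0.29 to 0.42 when 1 array was left out. That of Sox10 turned to 0.22 and 0.19, and was -0.35 to 0.31. That of Erbb3 was -0.03 to 0.31 when 1 array was left out. S100b was lower (-1.47 to -0.65), and Fabp7 (0.14 to 1.19) and Gfap (0.29 to 0.94) were higher, under all 18 alternatives. Control levels moved for Gfap, to -1.35 with the median over features, -1.30 without the feature of highest SD and -0.26 with a mean per sequence record first, and for Mbp to -0.28 with the last. Apart from what the settings themselves change, the cause was not tested. Signal over background was not analysed here, and 3 arrays a group limit the precision.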
